A study of Mus musculus with 9 samples.

Results

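The miR-17 family is represented here by 8 mature miRNAs that arise from 3 related clusters of hairpins: mmu-miR-17-5p, mmu-miR-18a-5p and mmu-miR-20a-5p from the miR-17-92 cluster, mmu-miR-106a-5p, mmu-miR-18b-5p and mmu-miR-20b-5p from the miR-106a-363 cluster, and mmu-miR-106b-5p and mmu-miR-93-5p from the miR-106b-25 cluster. The members were chosen by name, and all 8 of 8 were found among the 1052 miRNAs of the deposited table, each with 1 row; the prefix mmu, for mouse, is left out from here on. All 8 passed the filter on low counts and were among the 188 miRNAs tested. Their reads were counted in 9 small RNA libraries from the lateral cortex of embryos (strain C57BL/6, embryonic day 14.5), sorted by reporter fluorescence into 3 populations of 3 libraries each. The groups follow the neurogenic lineage: proliferating progenitors carry neither the R nor the G reporter signal, differentiating progenitors show R without G, and newborn neurons show G. From the study's publication the reporters are known to be a red protein expressed from Btg2, a gene switched on when a progenitor commits to making neurons, and a green protein driven by Tubb3, a tubulin of young neurons, and all groups were sorted from embryos of this kind. The labels do not say whether the 3 libraries of a population came from separate litters or sorts, so the p-values measure the spread between these libraries, which may be technical.

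A mature miRNA guides Argonaute to messenger RNAs mainly through its seed, bases 2 to 8 from the 5′ end, so miRNAs with a shared seed are thought to repress overlapping sets of targets. The miR-17-92 cluster is a well-known driver of proliferation in development and cancer, with the cell cycle inhibitor Cdkn1a among the known targets of the miR-17 seed. In the embryonic cortex miR-17-92 is known to expand neural stem cells and to hold back the transition to intermediate progenitors, and miR-106b-25 is known from work on adult neural stem cells. The comparisons ask whether these miRNAs differ between dividing progenitors, progenitors on the way to neurons and neurons that have left the cell cycle, and whether the 3 clusters behave alike.

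The sequences show how close the members are, which bears on how their reads can be told apart. They are the RefSeq mature sequences (GRCm38.p6), matched by name for all 8 members, with the seed in capitals and grouped by seed.
miR-17-5p: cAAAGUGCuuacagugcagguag
miR-106a-5p: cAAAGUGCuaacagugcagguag
miR-20a-5p: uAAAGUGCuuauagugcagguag
miR-20b-5p: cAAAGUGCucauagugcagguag
miR-93-5p: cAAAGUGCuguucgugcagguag
miR-106b-5p: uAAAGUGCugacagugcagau
miR-18a-5p: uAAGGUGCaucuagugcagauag
miR-18b-5p: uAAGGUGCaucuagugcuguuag

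The seed AAAGUGC was shared by 6 members and AAGGUGC by the other 2, miR-18a-5p and miR-18b-5p. Of the 1679 mature mouse miRNAs in the RefSeq table, a further miRNA, miR-6383, also carries AAAGUGC, and it had 0 counts in all 9 libraries. Counting positions from the 5′ end, miR-17-5p and miR-106a-5p differ at 1 of 23 bases, U10A, so that they are 95.7% identical. miR-20a-5p and miR-20b-5p differ at 2 bases (U1C and U10C), and miR-18a-5p and miR-18b-5p at 2 (A18U and A20U). The rule by which reads matching several of these sequences were assigned is not given in the sources used here, and the values of the less abundant partner of each pair are uncertain for that reason.

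The clusters lie on 3 chromosomes of the GRCm38 build (mm10). The miR-17-92 cluster of 6 hairpins spans 836 bp at chr14:115043671-115044506 on the plus strand, inside an exon of the annotated transcript of Mir17hg, a long non-coding RNA that serves as its host. The miR-106a-363 cluster of 6 hairpins spans 875 bp at chrX:52741693-52742567 on the minus strand. It lies next to the non-coding transcript Kis2 (chrX:52742563-52744960), whose annotated end overlaps the hairpin of miR-106a. The miR-106b-25 cluster of 3 hairpins spans 498 bp at chr5:138165321-138165818 on the minus strand within Mcm7, which encodes a subunit of the replicative DNA helicase. There the hairpin of miR-106b is intronic in every annotated transcript, and those of miR-93 and miR-25 lie in introns of the coding transcripts and overlap an exon only of a transcript annotated as a retained intron.

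Facts of the whole series that touch these values are few. Library totals ran from 821155 to 3856484 counts over miRNA rows, and in the smallest library 3 counts amount to 3.65 CPM. CPM are counts per 1000000 of the library total, here scaled with TMM factors (trimmed mean of M-values, which correct for composition). These factors ran from 0.903 to 1.02 in 8 libraries and were 1.22 in replicate 3 of the neurons. miR-9-5p, the dominant miRNA of neural tissue, was abundant in every library, and the 4 neuronal markers in the table summed to 1840 to 1967 CPM in proliferating progenitors, 1682 to 2051 in differentiating progenitors and 1986 to 2516 in neurons. Within that list miR-124-5p went from 37.96 to 82.8 CPM in proliferating progenitors to 317 to 503 CPM in neurons, while miR-129-5p went the other way, from 594 to 764 CPM to 178 to 253 CPM. Markers of other cell types were counted too, and whether such cells entered the double-negative gate was not tested. The 2 erythroid markers in the table, miR-451a and miR-144-5p, summed to 260.5 to 354 CPM in proliferating progenitors, 0.881 to 2.86 in differentiating progenitors and 0 to 2.31 in neurons. The 4 mural or mesenchymal markers summed to 437 to 579, 40.0 to 43.4 and 17.7 to 36.3 CPM, the 5 haematopoietic ones to 47.1 to 60.3, 20.7 to 36.99 and 8.44 to 9.01 CPM, and the endothelial miR-126a-5p was at 18.4 to 26.2, 11.4 to 12.3 and 5.28 to 12.3 CPM. Of the 4 mural or mesenchymal markers only 1 reached 10 CPM in any library, miR-143-3p, at 429 to 565 CPM in proliferating progenitors. No listed marker in the table was at 0 in every library. These sums were highest in proliferating progenitors, although haematopoietic miR-146a-5p, at 3.79 to 12.3 CPM there, was at 9.28 to 18.5 CPM in differentiating progenitors, and the part of such cells in the family's values was not tested. In sorted bulk samples, fewer cells of a type and less RNA per cell cannot be told apart.

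The 8 members together made up a small share of the miRNA counts. Their share was 1.08%, 0.893% and 0.948% in replicates 1 to 3 of proliferating progenitors, then 1.19%, 1.03% and 0.866% in the differentiating ones, and 0.846%, 0.565% and 1.30% in neurons. The populations overlapped, and the neuron libraries held both the lowest and the highest share of the 9. Almost all of it carried the AAAGUGC seed, with 97.8% to 98.4% of the members' counts in every library.

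miR-20a-5p was the most abundant member in the mean of each population. It was at 5200, 4612 and 4740 CPM in proliferating progenitors, 5657, 4910 and 4325 CPM in differentiating progenitors, and 3798, 2446 and 4842 CPM in neurons. By mean CPM over the 9 libraries it ranked 20 of 188. These are read counts per mature miRNA of 21 to 23 bases with no scaling to length, and ligation in small RNA libraries favours some sequences over others, so the order of the levels describes the reads.

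miR-93-5p came next, with 2597, 2311 and 2549 CPM in proliferating progenitors, 2674, 2561 and 2155 CPM in differentiating progenitors, and 2318, 1540 and 2949 CPM in neurons. miR-17-5p followed, with 2291, 2209 and 2109 CPM, then 2483, 2070 and 2067 CPM, and 1671, 1127 and 2162 CPM. The libraries of these 2 miRNAs did not overlap in proliferating progenitors but did in the other 2 populations, and in neurons those of miR-20a-5p and miR-93-5p overlapped too. The order by mean was the same in all 3 populations.

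Below these came miR-106b-5p, from 308 to 473 CPM over the 9 libraries, and miR-18a-5p, from 105 to 197 CPM. Neighbours in the order from miR-17-5p down to miR-18b-5p did not overlap within a population, except miR-20b-5p and miR-106a-5p in neurons. The 3 members from chromosome X were the least abundant, with 27.4 to 88.5 CPM for miR-20b-5p, 26.4 to 49.3 CPM for miR-106a-5p and 16.0 to 37.96 CPM for miR-18b-5p.

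**Figure D1:**
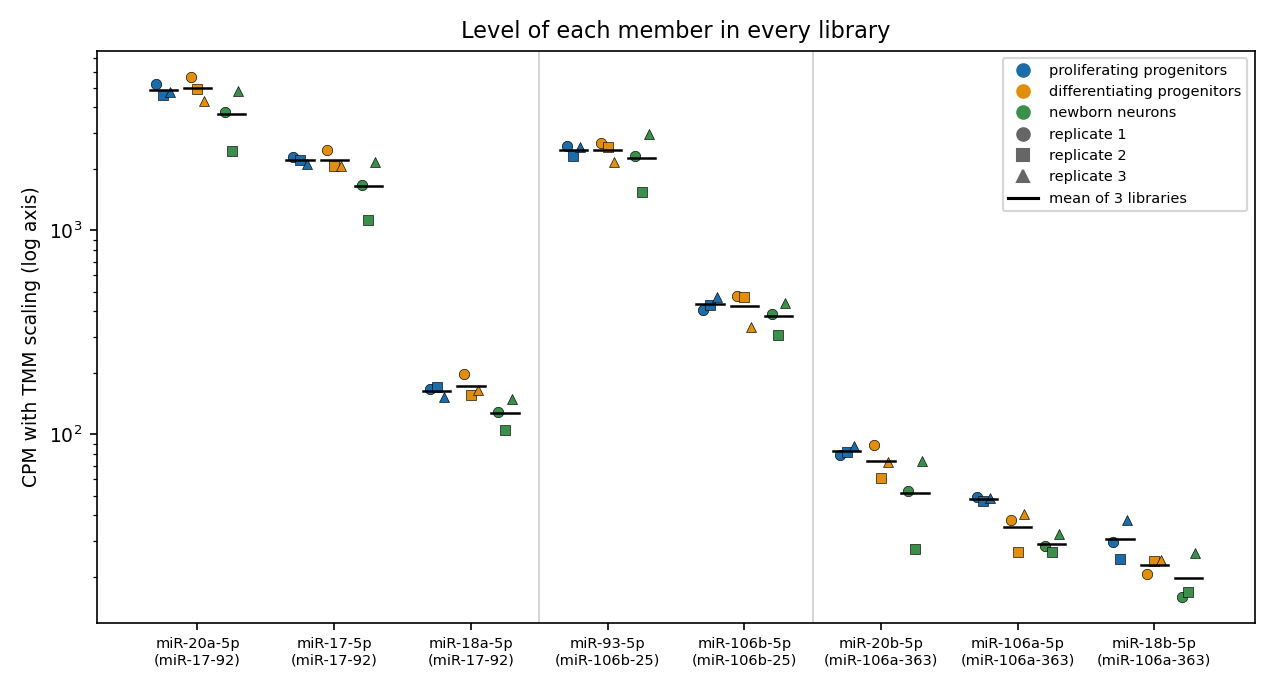
CPM with TMM scaling (vertical log axis) of each member in all 9 libraries, coloured by population, with a marker shape for each replicate and a black bar for the mean of 3 libraries. miR-20a-5p is highest by mean in each population, and the 3 members of miR-106a-363 lie below 100 CPM in every library.

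From proliferating to differentiating progenitors no member was called. The median log2 change of the 8 members was -0.02, against 0.08 over all 188 miRNAs tested, and the median size of the change regardless of sign was 0.06 for the members and 0.32 over all tested. These medians were not matched for level, and the least abundant members, from chromosome X, had changes from -0.46 to -0.15. Of the 188 miRNAs, 16.0% were called and 7.98% called lower (edgeR's quasi-likelihood test, Benjamini-Hochberg adjusted p under 0.05), so that 0 of 8 is to be read against that share. Values below 0 were found for 5 of 8 members and 41.5% of all tested. No member reached an unadjusted p under 0.05, beside 26.6% of all tested, and DESeq2 called 0 as well.

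The 5 members of miR-17-92 and miR-106b-25 were closest to 0 at this step, from -0.03 for miR-106b-5p to 0.08 for miR-18a-5p. For miR-17-5p the log2 change was 0.0021, with a 95% interval from -0.39 to 0.39. For miR-93-5p it was -0.01, with an interval from -0.40 to 0.38. As a fold the interval of miR-17-5p ran from 0.765 to 1.31, and changes of that size cannot be told from none here.

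The chromosome X members had lower values in differentiating progenitors without passing the test. miR-106a-5p was at 49.3, 47.0 and 48.4 CPM in proliferating progenitors and at 37.8, 26.4 and 40.6 CPM in differentiating progenitors. All 3 libraries of the second population were below those of the first, and the log2 change was -0.46 (SE 0.23, edgeR adjusted p = 0.22). miR-18b-5p, with 29.6, 24.5 and 37.96 CPM against 20.7, 23.8 and 24.2 CPM, did not overlap either (log2 change -0.41, SE 0.28, edgeR adjusted p = 0.393). These 2 of 8 members without overlap stand beside 32.4% of all tested miRNAs.

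From differentiating progenitors to newborn neurons again 0 of 8 members were called, beside 46.3% of all tested miRNAs and 22.3% called lower. All 8 log2 changes were below 0, as were 53.7% of all tested, from -0.56 for miR-20b-5p to -0.12 for miR-93-5p, with a median of -0.35 against -0.06 over all tested. The sign held for 7 of 8 with scaling to library totals and for 6 of 8 with totals that leave out miR-9-5p, the exceptions being miR-93-5p and, in the second, miR-106b-5p. At an unadjusted p under 0.05 there were 3 members, beside 52.1% of all tested, and all 3 came from miR-17-92. DESeq2 called 1 member, and without replicate 3 of the neurons 4 were called.

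The 3 members of miR-17-92 had similar values at this step. miR-18a-5p was at 197, 156 and 164 CPM in differentiating progenitors and 128.2, 105 and 148 CPM in neurons, without overlap (log2 change -0.44, SE 0.18, edgeR adjusted p = 0.055). It was the 1 member of 8 without overlap, beside 49.5% of all tested. miR-17-5p (log2 change -0.42, SE 0.18, edgeR adjusted p = 0.0746) and miR-20a-5p (-0.43, SE 0.19, edgeR adjusted p = 0.077) overlapped through replicate 3 of the neurons, which was within the range of the differentiating progenitors for both. Single neuron libraries set the size of these changes. Without replicate 2 they were -0.13 and -0.12 (edgeR adjusted p = 0.535 and 0.571), and without replicate 3 they were -0.63 and -0.64 (0.00825 and 0.0106). For miR-18a-5p they were -0.25 and -0.53 (0.27 and 0.039). For miR-93-5p and miR-106b-5p the intervals reached from -0.51 to 0.27 and from -0.55 to 0.20.

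Between proliferating progenitors and newborn neurons, the ends of the lineage, 3 of 8 members were called, all of them lower in neurons and all from miR-106a-363. Of all 188 miRNAs 56.4% were called and 26.6% were called lower, so the members' 3 of 8 lie below the share called in either direction and somewhat above the share called lower. The median log2 change of the members was -0.40, against -0.05 over all tested, and all 8 values were below 0 with TMM scaling, beside 50.5% of all tested; with library totals 6 were, miR-93-5p and miR-106b-5p changing sign. Library totals moved the median of all tested miRNAs up by 0.18. Relative to the median of all tested, the members' median was -0.36 with TMM, -0.32 with library totals and -0.34 with totals without miR-9-5p.

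Among the chromosome X members, miR-106a-5p had the most stable call. It was at 28.3, 26.4 and 32.3 CPM in neurons, below all proliferating libraries (48.2 ± 1.14 against 29.0 ± 3.01 CPM, SD, n = 3 each; log2 change -0.74, SE 0.23, edgeR adjusted p = 0.0113). The call held in 17 of 18 alternatives and was lost with library totals (edgeR adjusted p = 0.0673). When all 3 populations were tested jointly it was the 1 member called (edgeR adjusted p = 0.0316), beside 58.5% of all tested.

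miR-20b-5p fell from 78.8, 81.8 and 87.7 CPM to 52.5, 27.4 and 73.8 CPM, without overlap (log2 change -0.71, SE 0.28, edgeR adjusted p = 0.0425). This call was made in 10 of 18 alternatives, with adjusted p-values from 0.0069 to 0.239. The log2 change was -0.36 without replicate 2 of the neurons and -1.01 without replicate 3. miR-18b-5p was at 16.0, 16.9 and 26.1 CPM in neurons, where replicate 3 lay above the lowest proliferating library (log2 change -0.67, SE 0.27, edgeR adjusted p = 0.0464). Its call was made in 5 of 17 alternatives, with adjusted p-values from 0.0157 to 0.21. Leaving out replicate 1 or 3 of the proliferating progenitors, replicate 3 of the differentiating progenitors, or replicate 1 or 2 of the neurons left 1 member called, and leaving out replicate 3 of the neurons gave 5. With library totals 0 were called, and DESeq2 called 2.

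The other 5 members were not called over the whole lineage, and 4 of 8 members had an unadjusted p under 0.05, beside 60.6% of all tested. miR-17-5p had a log2 change of -0.42 (SE 0.18, edgeR adjusted p = 0.0655), miR-20a-5p of -0.39 (SE 0.19, edgeR adjusted p = 0.0895) and miR-18a-5p of -0.36 (SE 0.18, edgeR adjusted p = 0.103). Without replicate 2 of the neurons these were -0.16, -0.12 and -0.20, and without replicate 3 they were -0.65, -0.63 and -0.47, of which the first 2 were then called (edgeR adjusted p = 0.00412, 0.00739 and 0.0567). miR-18a-5p did not overlap between these populations, with miR-106a-5p and miR-20b-5p making 3 of 8 members, beside 64.4% of all tested. miR-106b-5p had -0.20 (95% interval -0.58 to 0.17) and miR-93-5p -0.13 (-0.52 to 0.26). The plot of changes shows the 3 clusters in separate ranges in this comparison, with overlapping intervals.

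**Figure D2:**
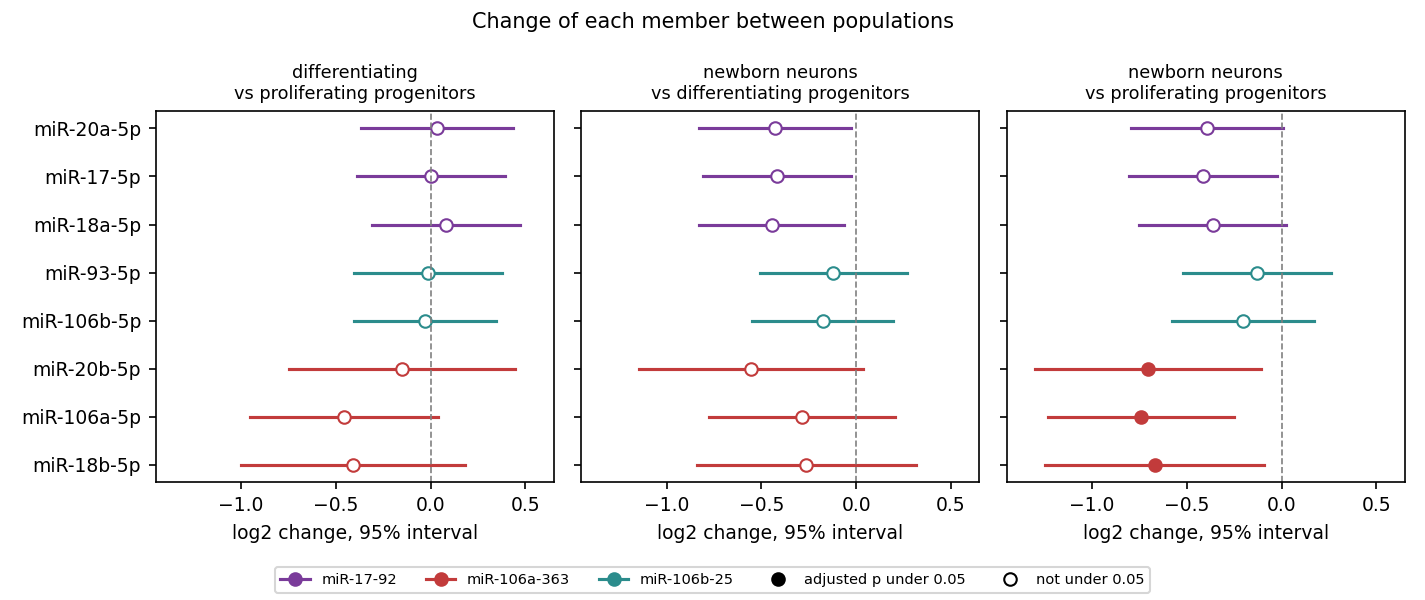
Log2 change of each member (points) with its 95% interval (lines) in the 3 pairwise comparisons, from the fit over 188 miRNAs, coloured by cluster. Filled points, which are the 3 members of miR-106a-363 in neurons against proliferating progenitors, had an edgeR adjusted p under 0.05.

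The balance between the clusters can be read within a library, where no scaling enters. The miR-17-92 members held 70.8%, 70.7% and 68.7% of the 8 members' counts in proliferating progenitors, then 71.7%, 69.4% and 71.4% in the differentiating ones, and 66.6%, 65.7% and 67.0% in neurons. The miR-106b-25 members held 27.8%, 27.7% and 29.6%, then 27.1%, 29.5% and 27.1%, and in neurons 32.2%, 33.0% and 31.7%. All 3 neuron libraries lay outside the range of the 6 progenitor libraries for both clusters, and both progenitor populations overlapped each other. For miR-17-92 the 95% Wilson interval of the highest neuron library reached from 66.2% to 67.8% and that of the lowest progenitor library, replicate 3 of the proliferating progenitors, from 67.6% to 69.7%. For miR-106b-25 the lowest neuron library reached from 31.0% to 32.5% and the same progenitor library, the highest there, from 28.6% to 30.6%. The intervals thus overlapped for miR-17-92 and did not for miR-106b-25. They cover counting error within a library and not the spread between libraries, so they do not compare the populations. Shares within a library are bound to each other, so the lower share of miR-17-92 and the higher share of miR-106b-25 are the same observation.

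The miR-106a-363 members held 1.46% to 1.71% in proliferating progenitors, 1.08% to 1.504% in differentiating progenitors and 1.15% to 1.26% in neurons. Neurons lay below all proliferating libraries and within the range of the differentiating ones. As a ratio of counts, miR-106a-363 to miR-106b-25 was 0.0554 ± 0.00263, 0.0463 ± 0.00941 and 0.0377 ± 0.0017 in the 3 populations in the order of the lineage. With miR-17-92 as the denominator it was 0.0225 ± 0.00219, 0.0181 ± 0.00278 and 0.0183 ± 0.000976, without a fall from differentiating progenitors to neurons. The ratio of miR-17-92 to miR-106b-25 was 2.47 ± 0.133, 2.54 ± 0.165 and 2.06 ± 0.0615 (SD, n = 3 each for all ratios). These sums over members were not tested.

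**Figure D3:**
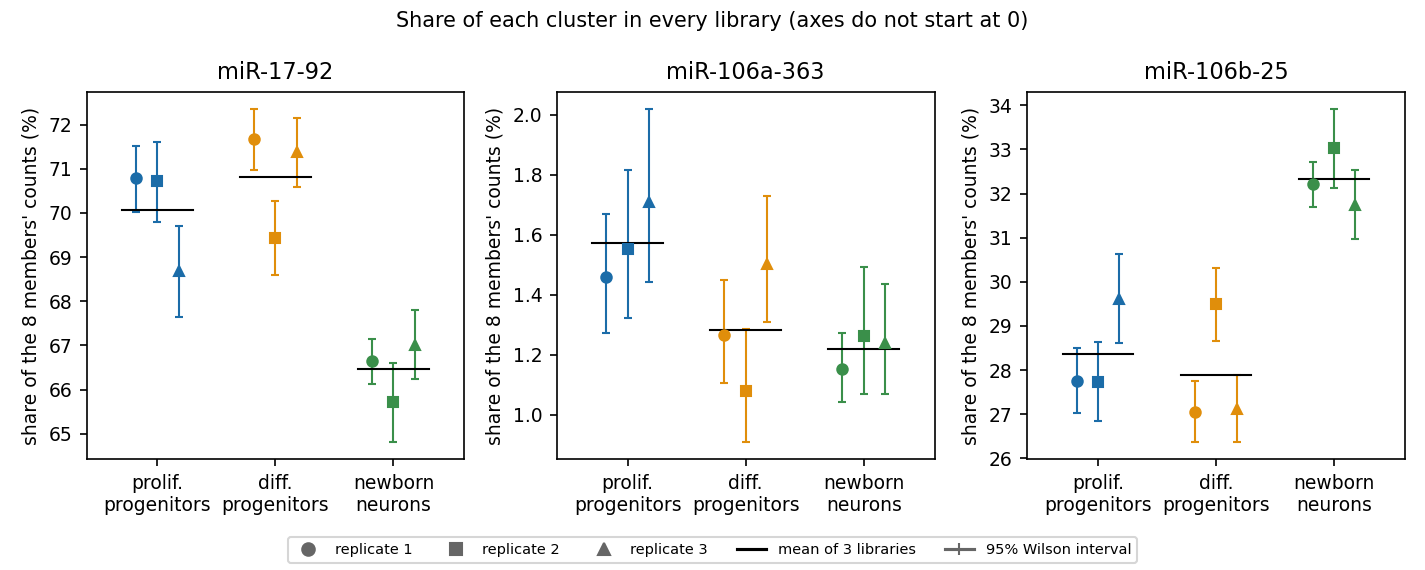
Share of each cluster in the counts of the 8 members (%), for each library with its 95% Wilson interval, with a black bar for the mean of 3 libraries; the vertical axes do not start at 0. Neurons lie at 65.7% to 67.0% for miR-17-92 and 31.7% to 33.0% for miR-106b-25, outside the range of the progenitor libraries.

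Ratios of single members were compared with exact permutation tests over libraries, 4 pairs in 3 comparisons, in which 3 libraries against 3 cannot give a two-sided p below 0.1. miR-93-5p, the more abundant member from chromosome 5, was set against miR-17-5p, a member of comparable level from chromosome 14. Their ratio was 1.05 to 1.21 in proliferating progenitors, 1.04 to 1.24 in differentiating progenitors and 1.36 to 1.39 in neurons. Neurons were higher than both progenitor populations in 3 of 3 libraries, by 0.28 (log2) than proliferating and 0.30 than differentiating progenitors (exact permutation test, p = 0.1 each, the smallest possible; adjusted over 12 tests 0.6). The result thus fails the correction, as any would in this design. Between both progenitor populations the ratio differed by -0.01 (log2), with overlap (exact permutation p = 0.9).

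Within a cluster the ratios overlapped between populations in all comparisons. miR-20a-5p had 2.09 to 2.37 times the counts of miR-17-5p over the 9 libraries, and the mean log2 ratio was 1.14, 1.17 and 1.16 along the lineage (exact permutation p from 0.5 to 0.8). miR-93-5p had 4.99 to 6.72 times the counts of miR-106b-5p, with mean log2 ratios of 2.51, 2.54 and 2.55 (exact permutation p from 0.5 to 1). For miR-18a-5p and miR-17-5p the mean log2 ratios were -3.75, -3.68 and -3.66 (exact permutation p from 0.2 to 0.9), with an SD of up to 0.22 within a population. With 3 libraries a group, no difference of any size in these ratios could pass the correction.

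The near-identical pairs of chromosomes X and 14 were also set against each other as shares of counts. miR-106a-5p amounted to 2.13% to 2.30% of the counts of miR-17-5p in proliferating progenitors, 1.28% to 1.96% in differentiating progenitors and 1.49% to 2.34% in neurons. miR-20b-5p amounted to 1.52% to 1.85%, 1.24% to 1.70% and 1.12% to 1.52% of miR-20a-5p, and miR-18b-5p to 14.4% to 25%, 10.5% to 15.3% and 12.4% to 17.6% of miR-18a-5p. Neurons overlapped the proliferating libraries for all 3 pairs. The part that misassigned reads of the abundant partner have in these low shares was not tested.

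The spread between replicates differed by population. In proliferating progenitors 7 of 8 members varied less than the median tested miRNA, with SDs of log2 CPM from 0.03 to 0.11 against a median of 0.21, and miR-18b-5p, with 0.30, was the exception. In differentiating progenitors the SDs ran from 0.12 for miR-18b-5p to 0.32 for miR-106a-5p, against a median of 0.24. In neurons the SDs were 0.47 for miR-17-5p and miR-93-5p, 0.50 for miR-20a-5p and 0.70 for miR-20b-5p, against a median of 0.25 over all tested. Of tested miRNAs, 87.2% to 97.3% varied less than these 4. The other members had 0.37 (miR-18b-5p), 0.26 (miR-106b-5p), 0.25 (miR-18a-5p) and 0.14 (miR-106a-5p), and 21.3% of tested miRNAs varied less than the last. Replicate 3 of the neurons was the highest of the 3 for 8 of 8 members, where it was for 41.0% of all tested miRNAs. Replicate 2 was the lowest for 7 of 8, and for 40.4% of all tested. The ratio of replicate 3 to replicate 2 ran from 1.22 for miR-106a-5p to 2.69 for miR-20b-5p, with a median of 1.73 against 1.06 over all tested. It was at least 1.5 for 5 of 8 members and for 18.1% of the 188. The neuron libraries thus differed more among themselves for miR-17-5p, miR-20a-5p and miR-93-5p than the population means did.

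Among the tested miRNAs outside the family, the 2 with the most similar pattern to the summed CPM of each cluster were picked by Pearson correlation of log2 CPM over the 9 libraries, which share the same scaling. For miR-17-92 they were miR-16-5p (0.90) and miR-15b-5p (0.89), for miR-106b-25 miR-16-5p (0.90) and miR-15b-5p (0.77), and for miR-106a-363 miR-15b-5p (0.93) and miR-126a-5p (0.91). miR-16-5p was at 1015, 977 and 1037 CPM in proliferating progenitors, 926, 990 and 784 CPM in differentiating progenitors, and 831, 578 and 926 CPM in neurons. Its neuron libraries had the same order as those of miR-17-5p, with replicate 2 lowest and replicate 3 highest. That order is no separate observation, since the pick used these same libraries. miR-15b-5p went from 364 to 400 CPM in proliferating progenitors to 113 to 241 CPM in neurons. miR-126a-5p is the endothelial marker given above, and its correlation with the chromosome X members is likewise no separate observation, since it was picked for it. Its libraries had the same order as the cluster sum in proliferating progenitors and in neurons. In differentiating progenitors replicate 2 was the highest for miR-126a-5p and the lowest for the cluster sum. Whether endothelial cells enter the values of these members was not tested.

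**Figure D4:**
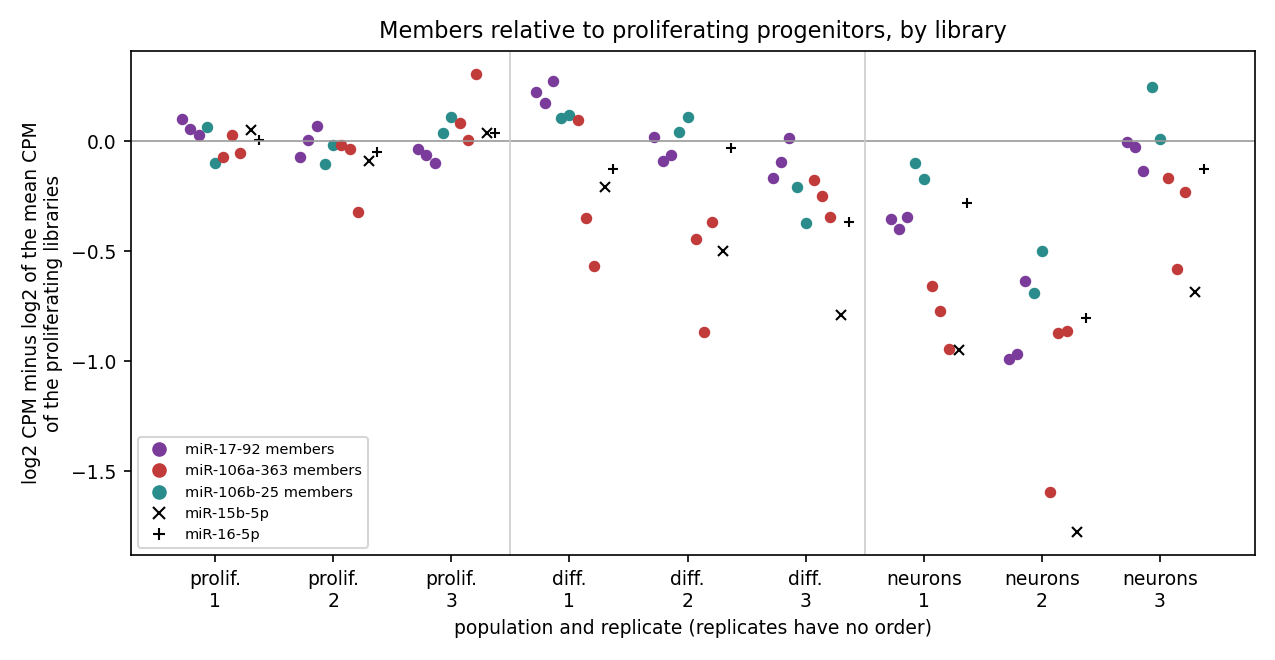
Log2 CPM of each member minus the log2 of its mean in the proliferating libraries (vertical axis), in each of the 9 libraries, coloured by cluster, with miR-15b-5p and miR-16-5p as black marks. Replicate 2 of the neurons is the lowest of the 3 neuron libraries for 7 of 8 members and replicate 3 the highest for all 8.

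The hairpins of the 3 clusters give further mature miRNAs with other seeds, among them miR-19 and miR-92. Of 20 such arms listed, 7 were in the table and 3 were tested; the 3p arms of all members and of miR-19, miR-92a, miR-25 and miR-363 were not analysed here. The other 4 arms in the table had at most 3 counts in any library. The tested ones are all 5p arms of hairpins whose 3p arm is known as the dominant product.
miR-25-5p: aGGCGGAGacuugggcaauugc
miR-92a-1-5p: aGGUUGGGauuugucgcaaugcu

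They are shown because they fell in neurons far more than the members from the same clusters, with seeds unlike either seed of the family. miR-25-5p, from the same cluster as miR-93-5p, was counted 156, 178 and 71 times in proliferating progenitors, then 202, 116 and 112, and 137, 64 and 52 in neurons. As CPM it went from 131 ± 45.9 to 36.3 ± 3.23 (SD, n = 3 each) over the lineage (log2 change -1.86, SE 0.27, edgeR adjusted p = 1.62e-05). As a share of the counts of miR-93-5p in the same library it was 3.65% to 7.87% in proliferating progenitors, 3.70% to 5.39% in differentiating progenitors and 1.35% to 2.19% in neurons. The neuron libraries were below all 6 progenitor libraries, a ratio looked at after its values were seen and not tested.

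miR-92a-1-5p, the minor arm of the last hairpin of miR-17-92, had 35, 21 and 6 counts, then 24, 10 and 3, and 6, 3 and 1 in neurons (log2 change -3.73 over the lineage, SE 0.61, edgeR adjusted p = 6.23e-05). At these counts the fitted change is imprecise, with a 95% interval from -5.03 to -2.43, and at the second step its edgeR adjusted p ran from 4.31e-06 to 0.0519 over the alternatives, the highest without replicate 1 of the differentiating progenitors. miR-363-5p, from the chromosome X cluster, had 11 to 20 counts in the progenitor libraries and 54, 15 and 15 in neurons, and was not called (log2 change -0.50 over the lineage, SE 0.33, edgeR adjusted p = 0.21). Of the 3 tested arms, 0 were called at the first step, 2 at the second and the same 2 over the whole lineage, all lower, beside 16.0%, 46.3% and 56.4% of all tested. At the first step miR-92a-1-5p (log2 change -1.05, edgeR adjusted p = 0.183) was called without replicate 1 of the differentiating progenitors (-1.89, edgeR adjusted p = 0.0226), and its adjusted p ran from 0.0226 to 0.525 over the alternatives.

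The miR-302 and miR-290 to miR-295 miRNAs of pluripotent cells carry, on their 3p arms, a seed related to that of miR-17. Of 24 arms listed 12 were in the table, of which 9 were at 0 in every library, and 0 reached 10 CPM in any library. All 12 are 5p arms, so the arms with the related seed were not analysed here.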

How the data were processed

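Per the labels' protocols, papain was used to free the cells, the populations were separated by their reporter fluorescence, and libraries were made with a NEBNext small RNA kit. The authors deposited a table of raw read counts with 1433 rows and 1 column per library, whose whole numbers are not normalised. Whether a library was made from several pooled embryos cannot be read from these values. The submitters' processing notes name bcl2fastq 1.8.2, DESeq2 and mm10; aligner and counter are not given in the sources used here. Of the rows, 222 without a database accession were left out, the row with the largest total was kept per mature name, and names of at least 50 counts that differed by at most 2% were merged (7 groups, no member among them), leaving 1052 miRNAs. No column was left unused.

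Tests used edgeR 4.0.16 in R 4.3.3 on all 9 libraries (filterByExpr, TMM, glmQLFit, glmQLFTest, 1 estimate of the spread, no covariate), with Benjamini-Hochberg adjustment over 188 miRNAs and a threshold of 0.05. Standard errors and 95% intervals follow from the F statistic. DESeq2 1.42.0 was an alternative. The procedure was tested on simulated data with the same spread for every miRNA. No claim on the recovery of changes as small as those of the members is drawn from it. Ratios of members used counts plus 0.5 and two-sided exact permutation tests (scipy 1.17.1). Intervals of shares are Wilson intervals at 95%. Library totals set the depth: a count of 0 allows up to 3 counts, or 0.778 to 3.65 CPM. Wilson intervals treat each read as independent, which PCR copies are not, so they may be too narrow even for counting error. The edgeR intervals also take in the spread between libraries. Named miRNAs are the 8 members, the other arms of their clusters and the 2 outside miRNAs closest to each cluster sum. The members and lists were chosen with earlier results of these data known. Alternatives changed the scaling, test, filter, libraries, rows per name and replicate block.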

Additional observations from a re-analysis of the deposited data

How the results depend on the processing

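Over the alternatives, the call of miR-106a-5p in neurons against proliferating progenitors was the most stable among the members, and the counts of called members were not. Members called in that comparison numbered 0 with library totals and 1 with totals without miR-9-5p, and 1 to 5 when 1 library was left out. At the second step they numbered 1 with DESeq2, 1 with no filter on low counts, and 0 to 4 when 1 library was left out. At the first step, 0 were called under every alternative run. The members of miR-106a-363 had 24 to 204 counts in a library. Over all miRNAs, calls at the first step fell from 30 to 18 with at least 50 counts required in 3 libraries, a filter that also leaves fewer miRNAs tested. When 1 library was left out they were 18 to 37 (18 without replicate 1 of the proliferating progenitors). The joint test called 110, and 71 with the stricter filter. Of the calls at the second step, 51.7% were higher with TMM and 65.3% with totals without miR-9-5p. Log2 changes near 0 changed sign, none of them past the threshold. For miR-17-5p at the first step the value was -0.067 with totals without miR-9-5p, -0.0022 with no filter, -0.044 with the stricter filter, -0.0040 with the replicate block and -0.046 with rows of a name summed. For miR-20a-5p it was -0.036, -0.012 and -0.015 with totals without miR-9-5p, the stricter filter and summed rows. For miR-106b-5p it was 0.046 with library totals and 0.00031 with only the 2 populations compared, and for miR-93-5p 0.056 and 0.015. At the second step miR-106b-5p had 0.0014 with totals without miR-9-5p, and miR-93-5p had 0.030 with library totals and 0.064 with totals without miR-9-5p. For miR-363-5p it was 0.011 and 0.081 with the same 2 scalings. Over the whole lineage miR-106b-5p and miR-93-5p had 0.0020 and 0.085 with library totals. The cause of these changes was not tested.

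Leaving out 1 library gave these ranges of log2 changes. At the first step they were -0.099 to 0.058 for miR-17-5p, -0.032 to 0.16 for miR-18a-5p, -0.079 to 0.11 for miR-20a-5p, -0.12 to 0.10 for miR-106b-5p and -0.085 to 0.058 for miR-93-5p. At the second step they were -0.26 to 0.028 for miR-106b-5p and -0.32 to 0.17 for miR-93-5p, and over the whole lineage -0.36 to 0.13 for miR-93-5p. Of the other arms, miR-25-5p had -0.54 to 0.034 at the first step and miR-363-5p -0.35 to 0.20 at the second. For the log2 ratio of miR-20a-5p to miR-17-5p the differences were -0.011 to 0.080, -0.062 to 0.028 and -0.020 to 0.040 in the 3 comparisons, and for miR-93-5p to miR-106b-5p -0.040 to 0.11, -0.089 to 0.12 and -0.061 to 0.15. For miR-18a-5p to miR-17-5p they were -0.11 to 0.11 at the second step and -0.028 to 0.19 over the lineage, and for miR-93-5p to miR-17-5p -0.089 to 0.035 at the first step.

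The replicate numbers are shared by the 3 populations, but no label says what a number marks. Deviations of same-numbered libraries correlated at -0.07 to 0.25, over 0.1 in 4 of 9 pairs, and those of the 6 pairs that involve differentiating progenitors were at 0.02 to 0.25. In both other populations at once, 2 of 9 libraries correlated best with their own number. Between different-numbered libraries the correlations were -0.26 to 0.12. Since not every same-numbered pair was over 0.1, the numbers were not used to pair the samples, which does not settle what they mark. With the replicate block 33, 88 and 108 miRNAs were called in the 3 comparisons and 110 in the joint test, and 0, 0 and 4 members. At the first step the block also called miR-92a-1-5p (log2 change -1.01, edgeR adjusted p = 0.037).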
